A study of Mus musculus with 12 samples.

Results

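The genes described here encode the extracellular matrix that fibroblasts lay down: fibrillar and other collagens, small and large proteoglycans, elastic fibre proteins, the enzymes that crosslink collagen and elastin, and adhesive and matricellular glycoproteins. The list holds 38 genes. Of these, 36 were measured by a probe set annotated to that gene alone, out of 19938 genes measured in that way. Fbn1 and Loxl2 are not analysed here. The measured members comprised 15 collagens, 6 proteoglycans, 6 elastic fibre genes, 2 crosslinking genes and 7 adhesive or matricellular genes.

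Fibroblasts secrete procollagens that assemble outside the cell into fibrils, and small leucine-rich proteoglycans such as decorin, lumican and fibromodulin bind those fibrils and limit their width. Elastin and the fibulins form elastic fibres, and lysyl oxidases crosslink both fibre types. Embryonic fibroblasts in culture express this set strongly, and its transcription is known to respond to TGF-beta, to serum and to growth arrest.

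RNA was measured on 12 arrays (Affymetrix Mouse Gene 1.0 ST), each for a single sample of mouse embryonic fibroblasts with wild-type or mutant Rb1, the gene of the retinoblastoma protein. All cells were grown in 10% serum to passage 4 and then arrested in 0.1% serum for 72 h, so no group was measured while cycling in full serum. The design holds a pair of sets: Rb1 S/S cells with their own Rb1 +/+ wild type (the S set) and Rb1 L/L cells with their own Rb1 +/+ wild type (the L set), with 3 arrays in each of the 4 groups. What the alleles named S and L alter is not in the labels, which also give neither strain nor embryonic age. Nor is it stated whether the 3 samples of a group were grown from different embryos. By Y-linked signal, array 1 of each L-set group was male and the others were not, so those samples were not all of the same embryo. P-values therefore refer to the spread among these samples, which may be technical in the S set and partly so in the L set.

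Values are log2 RMA values, on which a difference of 1 is a doubling of signal. Each gene is read by its own probes, so levels were compared between groups and never between genes. Rb1 itself read 8.34 to 9.72 over the 12 arrays, and since the labels do not say that either allele alters its RNA, this checks no label. By their Y-linked signal, 2 arrays came from male cells, array 1 of the L-set wild type and array 1 of L/L. Array 1 of the S-set wild type stood apart, with a residual SD over all genes of 0.325 against 0.093 to 0.193 in the other 11 arrays. Its values also spanned a narrower range, with an interquartile range over all genes of 2.72 against 3.17 to 3.39 in the others. Markers of fibroblasts had mean levels of 10.27 to 10.70 in every array, and none of the 11 passed in either mutant, although Thy1, Pdgfrb and Cd34 passed in the comparisons between the sets given below. The matrix genes read 6.75 to 13.55, and all 36 had a mean over the 12 arrays of at least 6. Y-linked genes in the 10 female arrays read 3.82 to 5.51, but this range is not a floor for every probe set. Epithelial and skeletal muscle markers had mean levels of 6.23 to 7.16, and the epithelial marker Krt8 read 7.75 to 8.61. The dimmest member, Col15a1, read 6.75 to 7.72, and whether its signal exceeded background was not tested.

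No matrix gene differed between either mutant and its matched wild type at an adjusted p under 0.05, in the limma fit adjusted over 19938 genes. In S/S 0 of 36 passed, where 24 of all genes did (0.12%), and in L/L 0 of 36 passed, where 8 of all genes did (0.0401%). At an unadjusted p under 0.05 there were 7 matrix genes in S/S, where 10.1% of all genes lay, and 1 in L/L, where 3.27% of all genes lay. The members were spread to both sides in S/S, with 23 higher, 13 lower and a median difference of 0.06, against a median of -0.04 over all genes. The higher members made up 63.9%, against 42.4% of all genes. In L/L 31 were lower and 5 higher, with a median of -0.13, against 0.02 over all genes, of which 44.1% were lower. Among the 10797 genes with a mean at least as high as that of the dimmest probe set of a member, the median was 0.04 in S/S and 0.01 in L/L. Of those genes 58.3% were higher in S/S, near the share of the members, and 47.7% were lower in L/L. That cut is the mean of Col15a1 (7.17), and all other members averaged higher. These genes are therefore not matched to the members in level. The S/S balance moved with the normalization and with single arrays: after quantile normalization 17 were higher and 19 lower, and without array 1 of the S-set wild type 15 were higher and 21 lower (median -0.03). In L/L 27 to 32 genes were lower when a single array of the L set was left out, and 29 after quantile normalization. In bulk RNA, fewer cells of a type and less RNA per cell cannot be told apart.

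**Figure D1:**
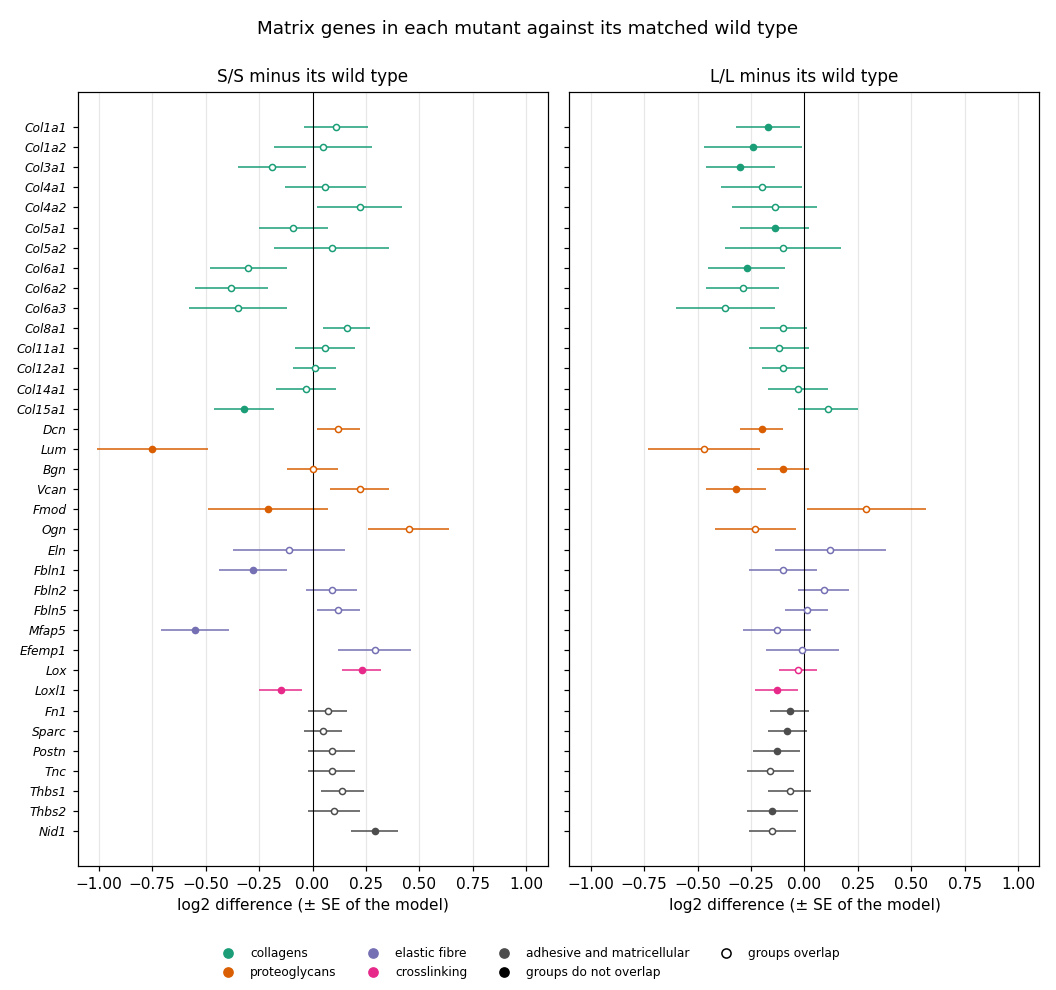
Log2 difference of each of 36 matrix genes between mutant and matched wild type (x axis, in log2 units) with the SE of the model as a bar, n = 3 arrays per group. Rows are genes, coloured by role, and a filled point marks a gene whose mutant and wild-type arrays do not overlap. In S/S the points lie on both sides of 0, from -0.75 for Lum to 0.45 for Ogn, while in L/L 31 of 36 lie below 0, within -0.47 and 0.29.

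No collagen passed in either mutant, and the balance of their signs in S/S moved with a single array and with the normalization. In S/S 8 of 15 were higher and 7 lower (median 0.01), and without array 1 of the S-set wild type 1 was higher and 14 lower (median -0.17). After quantile normalization 4 were higher and 11 lower (median -0.03). In L/L 14 of 15 were lower (median -0.14, and -0.16 after quantile normalization), with 12 to 14 lower when a single array of the L set was left out.

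Col1a1 and Col1a2 encode the chains of type I collagen, the main fibrillar collagen of skin, tendon and bone. Col1a1 read 13.06, 12.92 and 13.00 in the L-set wild type and 12.84, 12.86 and 12.77 in L/L. Every mutant array lay below every wild-type array, by a mean of 0.17 (SE 0.15). Col1a2 gave 12.76, 12.56 and 12.71 against 12.44, 12.48 and 12.38, again without overlap (difference -0.24, SE 0.23). These SEs are shared over the 4 groups, and both genes varied more in the S set. The SDs of wild type and mutant were 0.29 and 0.27 in the S set against 0.07 and 0.05 in the L set for Col1a1. For Col1a2 they were 0.52 and 0.44 against 0.11 and 0.05. In the S set the same genes overlapped, with Col1a1 at 12.22, 12.59 and 12.79 in wild type and 12.33, 12.81 and 12.80 in S/S.

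Col3a1, the type III chain that co-assembles with type I in soft tissue, read 11.29, 11.13 and 11.30 in the L-set wild type and 10.98, 10.97 and 10.87 in L/L, a difference of -0.30 (SE 0.16). The L/L arrays were all below the wild type, while in the S set the ranges overlapped (difference -0.19, SE 0.16). Col5a1, a chain of the type V collagen that starts type I fibrils, was lower without overlap in L/L (difference -0.14, SE 0.16), and its partner Col5a2 overlapped (-0.10, SE 0.27). Col4a1 and Col4a2, the basement membrane type IV chains, differed by 0.06 and 0.22 in S/S and by -0.20 and -0.14 in L/L, all with overlapping arrays. The Col4a2 value in S/S, the highest among the collagens there, was -0.01 without array 1 of the S-set wild type.

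The 3 chains of type VI collagen, a beaded microfibrillar collagen of the pericellular space, were among the 4 collagens with the lowest differences in each mutant. Col6a1 read 10.37, 10.85 and 10.96 in the S-set wild type, 10.06, 10.60 and 10.63 in S/S, 10.41, 10.55 and 10.75 in the L-set wild type and 10.15, 10.40 and 10.36 in L/L. Col6a2 read 10.44, 10.77 and 10.97, then 10.06, 10.44 and 10.55, then 10.20, 10.39 and 10.66, then 9.95, 10.24 and 10.20, in the same order. Col6a3 read 10.34, 10.70 and 11.05, then 10.04, 10.54 and 10.46, then 9.71, 10.07 and 10.56, then 9.47, 9.81 and 9.93. Each chain had the lower mean in both mutants, and of the 6 comparisons only Col6a1 in L/L was free of overlap. The differences were -0.30, -0.38 and -0.35 in S/S and -0.27, -0.29 and -0.37 in L/L for Col6a1, Col6a2 and Col6a3, with SEs of 0.17 to 0.23. Col6a2 had the smallest p of the 3 in S/S (unadjusted p = 0.0423, adjusted p = 0.482), and every matrix gene in L/L had an adjusted p of 1.0.

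Col15a1, a basement membrane-associated collagen, was read by the dimmest probe set and was the sole collagen whose S/S arrays did not overlap the wild type. It read 7.72, 7.29 and 7.25 in wild type and 7.10, 7.07 and 7.12 in S/S (difference -0.32, SE 0.14, adjusted p = 0.464), with the highest wild-type value in the array that stood apart. In L/L it was the one collagen above its wild type, at 7.09, 7.14 and 7.15 against 6.75, 7.12 and 7.18 (difference 0.11, SE 0.14), with overlap. Whether the Col15a1 signal exceeded background was not tested, which limits the reading of these differences. The remaining collagens, Col8a1, Col11a1, Col12a1 and Col14a1, differed by 0.16 to -0.03 in S/S and by -0.03 to -0.12 in L/L, all with overlap.

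The proteoglycans held the widest range of any role in S/S, from -0.75 to 0.45, with 4 of 6 higher and 2 lower (median 0.06, and -0.02 after quantile normalization). In L/L 5 of 6 were lower (median -0.22). Lum encodes lumican, a small leucine-rich proteoglycan that binds collagen fibrils. It read 10.64, 10.87 and 10.94 in wild type against 10.30, 10.21 and 9.68 in S/S, all below the wild type (difference -0.75, SE 0.26, 1.69-fold, unadjusted p = 0.0123, adjusted p = 0.381). In the L set it read 10.40, 11.22 and 11.56 against 10.21, 10.81 and 10.75 (difference -0.47, SE 0.26), where the ranges overlapped and the wild-type arrays alone spanned more than the difference.

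Dcn encodes decorin, a fibril-binding relative of lumican whose gene lies directly next to Lum. It read 12.48, 12.50 and 12.48 in the S-set wild type and 12.70, 12.66 and 12.47 in S/S, higher in 2 of 3 arrays (difference 0.12, SE 0.10). In the L set it read 12.77, 12.92 and 12.82 against 12.54, 12.72 and 12.64, lower in all 3 (difference -0.20, SE 0.10). These neighbours therefore had opposite signs in S/S and the same sign in L/L, and neither passed.

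Vcan, the gene of versican, a large hyaluronan-binding proteoglycan, was the sole matrix gene with an unadjusted p under 0.05 in L/L. It read 11.74, 11.80 and 11.86 in wild type against 11.59, 11.38 and 11.48 in L/L, with all L/L arrays lower (difference -0.32, SE 0.14, 1.24-fold, unadjusted p = 0.0453, adjusted p = 1.0). In the S set it read 10.98, 11.46 and 11.48 against 11.51, 11.73 and 11.32 (difference 0.22, SE 0.14), with overlap.

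Ogn encodes osteoglycin (mimecan), another small leucine-rich proteoglycan. It read 10.75, 11.43 and 11.45 in the S-set wild type and 11.80, 11.82 and 11.35 in S/S, the highest difference of any member there (0.45, SE 0.19, unadjusted p = 0.0325, adjusted p = 0.456). The third S/S array overlapped the wild type, and the lowest value belonged to the wild-type array that stood apart. Without that array the difference was 0.22. In L/L Ogn read 12.27, 12.09 and 12.04 against 12.51, 12.43 and 12.16 (difference -0.23, SE 0.19), also with overlap.

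Fmod encodes fibromodulin, which binds collagen and guides its crosslinking. It read 10.59, 10.57 and 10.64 in the S-set wild type and 10.40, 10.33 and 10.44 in S/S, lower in all 3 but by only -0.21 against an SE of 0.28. The SE is shared over the 4 groups and Fmod was far more variable in the L set, at 8.44, 8.91 and 9.40 in wild type against 8.84, 8.80 and 9.99 in L/L. The L/L difference of 0.29 (SE 0.28) rested on the third L/L array, and was -0.10 without it. Bgn, the gene of biglycan, differed by 0.00 in S/S and by -0.10 in L/L.

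**Figure D2:**
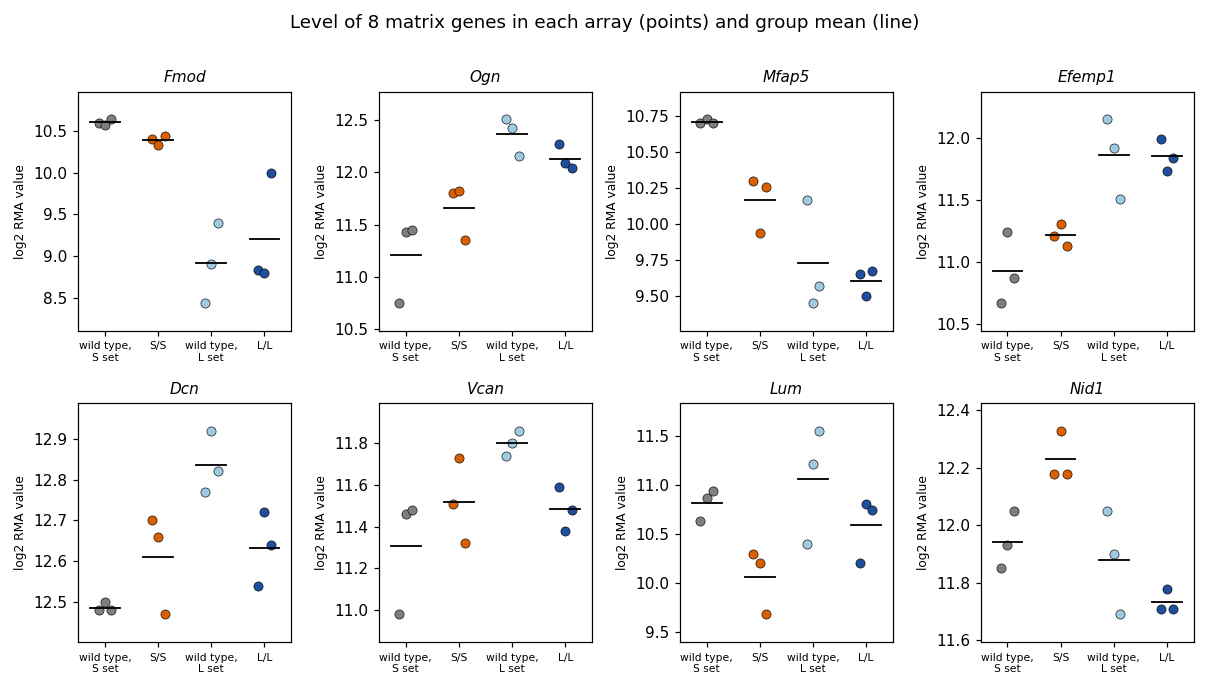
Log2 RMA value of 8 matrix genes (y axis) in each of the 12 arrays, with points for arrays and a line for the group mean, n = 3 per group. Fmod and Mfap5 are lower and Ogn and Efemp1 higher in both groups of the L set than in both groups of the S set, while Lum and Mfap5 in S/S lie wholly below and Nid1 wholly above the matched wild type.

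Elastic fibre genes did not share a direction in either mutant, with 3 of 6 higher and 3 lower in each. Mfap5, a microfibril-associated glycoprotein, had the smallest p of all members in S/S. It read 10.70, 10.73 and 10.70 in wild type and 10.30, 9.94 and 10.26 in S/S, so that all 3 S/S arrays lay below a wild type that hardly varied (difference -0.55, SE 0.16, 1.46-fold, unadjusted p = 0.00505, adjusted p = 0.3). In the L set it read 10.17, 9.45 and 9.57 in wild type against 9.65, 9.50 and 9.67 in L/L, with overlap (difference -0.13, SE 0.16).

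Fbln1, the gene of fibulin-1, was lower without overlap in S/S, at 10.65, 10.71 and 10.66 in wild type and 10.35, 10.38 and 10.47 in S/S (difference -0.28, SE 0.16). Its L-set wild-type arrays spread from 10.22 to 11.02, which enlarged the shared SE. Efemp1 encodes fibulin-3, and read 10.67, 11.24 and 10.87 in the S-set wild type and 11.21, 11.31 and 11.13 in S/S, with overlap (difference 0.29, SE 0.17). Efemp1 did not differ in mean between L/L and its wild type (-0.01, SE 0.17). Eln, the elastin gene, differed by -0.11 (SE 0.26) in S/S and 0.12 (SE 0.26) in L/L, and the L/L value was -0.11 without array 2 of the L-set wild type and -0.05 without array 3 of L/L. Fbln2 and Fbln5, of which fibulin-5 is needed for elastic fibre assembly, differed by 0.09 and 0.12 in S/S and by 0.09 and 0.01 in L/L.

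The crosslinking enzymes parted in S/S. Lox, the gene of lysyl oxidase, read 12.73, 12.75 and 12.87 in wild type and 13.05, 13.08 and 12.93 in S/S, all higher (difference 0.23, SE 0.09, unadjusted p = 0.0286, adjusted p = 0.442). Loxl1, its relative that acts on elastin, read 11.73, 11.71 and 11.86 against 11.48, 11.69 and 11.68, all lower (difference -0.15, SE 0.10). In L/L Loxl1 was again lower without overlap, at 11.30, 11.28 and 11.33 against 11.37, 11.34 and 11.60 (difference -0.13, SE 0.10), whereas Lox read 12.92, 12.87 and 12.84 against 13.01, 12.89 and 12.82 (-0.03, SE 0.09). None of these passed.

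The adhesive and matricellular genes had opposite balances in the mutants. In S/S all 7 had the higher mean (median 0.09), with 6 of 7 higher after quantile normalization or without array 1 or array 2 of the S-set wild type. In L/L all 7 had the lower mean (median -0.13), also after quantile normalization and in each fit that left out a single array of the L set. Of genes at least as bright as the dimmest member, 58.3% were higher in S/S and 47.7% lower in L/L. The differences lay between 0.05 and 0.29 in S/S and between -0.07 and -0.16 in L/L, with SEs of 0.09 to 0.12, and none passed.

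Nid1 encodes nidogen-1, which links laminin to type IV collagen, and was the highest of these in S/S. It read 11.85, 11.93 and 12.05 in wild type and 12.18, 12.33 and 12.18 in S/S, without overlap (difference 0.29, SE 0.11, unadjusted p = 0.0196, adjusted p = 0.408). In the L set it read 12.05, 11.90 and 11.69 against 11.71, 11.78 and 11.71, with overlap (difference -0.15, SE 0.11). Tnc, the gene of tenascin-C, a matricellular glycoprotein of remodelling tissue, had the lowest L/L value of the group, at 12.50, 12.18 and 12.38 against 12.71, 12.44 and 12.39 (difference -0.16, SE 0.11), again with overlap.

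Fn1, Sparc, Postn and Thbs2 were lower without overlap in L/L. Fibronectin (Fn1) read 13.35, 13.33 and 13.33 in wild type against 13.30, 13.21 and 13.29 in L/L (difference -0.07, SE 0.09). Sparc, a collagen-binding matricellular protein, read 13.46, 13.42 and 13.44 against 13.37, 13.33 and 13.37 (difference -0.08, SE 0.09). The L-set replicates of both genes lay within 0.10 of each other, so a small difference separated the groups. Periostin (Postn) and thrombospondin-2 (Thbs2) differed by -0.13 and -0.15, and Thbs1, which overlapped, by -0.07.

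Counted over all roles, L/L arrays lay wholly below the wild type for 13 of 36 members, where 5.10% of all genes did so, and wholly above for 0, where 9.71% did so. The 13 were Col1a1, Col1a2, Col3a1, Col5a1, Col6a1, Dcn, Bgn, Vcan, Loxl1, Fn1, Sparc, Postn and Thbs2. In S/S 6 members lay wholly below (6.29% of all genes), namely Col15a1, Lum, Fmod, Fbln1, Mfap5 and Loxl1, and 2 wholly above (5.49%), Lox and Nid1. These counts describe separation of groups of 3 and are not calls.

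Whether the effects of the alleles differ was tested in the same fit, and no matrix gene passed (0 of 36, against 3 of all genes, 0.015%). At an unadjusted p under 0.05 there were 5 members, where 6.50% of all genes lay: Ogn (0.68), Vcan (0.53), Nid1 (0.44), Dcn (0.33) and Col15a1 (-0.44), each value being the S/S effect minus the L/L effect. Of the 36, 21 were higher in S/S and lower in L/L, 10 lower in both, 2 higher in both and 3 lower in S/S and higher in L/L. The 12 that shared a sign make up 33.3% of the members, and 44.5% of all genes shared one. The signs in S/S depend on single arrays, as given above.

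The collagens were also read array by array. Relative to the mean of the 12 arrays, the 15 collagens averaged -0.30 in array 1 of the S-set wild type and -0.34 in array 1 of S/S, and -0.08 to 0.20 in the other 10 arrays. Array 1 was the lowest of its group in both groups of the S set for 12 of 15 collagens (80.0%) and for 17 of 36 members (47.2%). The same held for 24.4% of all genes and for 41.5% of genes at least as bright as the dimmest member, which are not matched to the collagens in level. In the L set this held for 4 of 15 collagens (26.7%), for 17.0% of all genes and for 21.9% of genes at least as bright as the dimmest member. The proteoglycans did not share it: none of the 6 was lowest in array 1 of both S-set groups. The labels give no batch, and what sets these arrays apart was not tested.

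**Figure D3:**
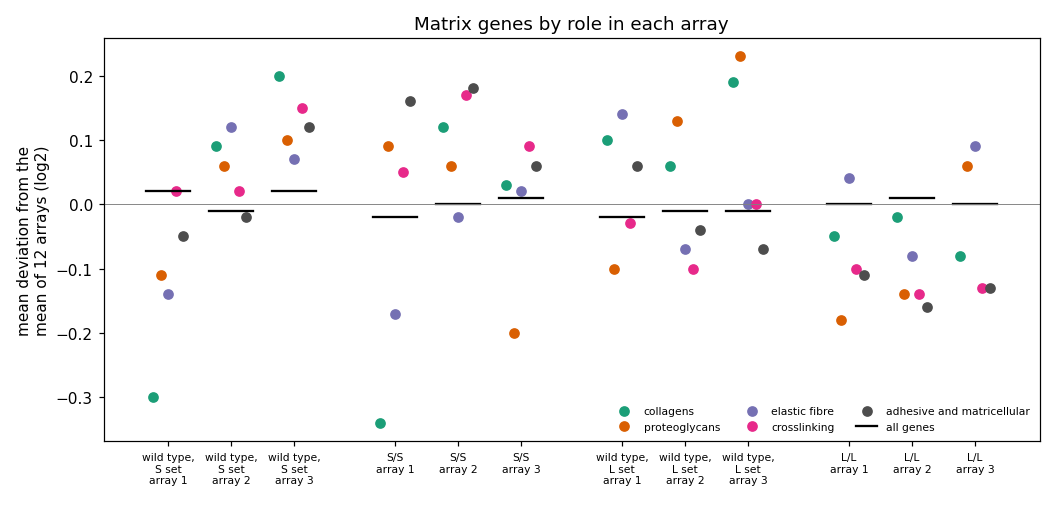
Mean deviation from the mean of the 12 arrays (y axis, log2 units) for the matrix genes of each role, one point per role in each array (x axis), with a black line for all genes. Collagens sit at -0.30 and -0.34 in the arrays numbered 1 of the S set and at -0.08 to 0.20 elsewhere. The collagens, the crosslinking and the adhesive genes lie below 0 in all 3 L/L arrays. The crosslinking genes also sit at -0.10 to -0.00 in the L-set wild type.

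The wild types of the S and L sets carry the same Rb1 genotype, and the comparison between them measured how far the sets differ apart from the mutation. Here 7 of 36 matrix genes passed in the limma fit, where 1736 of all genes did (8.71%). Ogn, Efemp1, Col11a1, Vcan and Dcn were higher in the L set (5 of 36, against 3.54% of all genes), and Fmod and Mfap5 lower (2 of 36, against 5.17%). At an unadjusted p under 0.05 there were 15 members (23.7% of all genes), and the groups were free of overlap for 10 higher (11.5%) and 5 lower (16.1%). The same question was asked of the mutants, L/L minus S/S, a comparison added after the data were seen that shares no array with that of the wild types but adds the effects of the alleles. In it 5 members passed, where 9.44% of all genes did: Efemp1 was higher (1 of 36, against 3.69%) and Fmod, Mfap5, Tnc and Nid1 lower (4 of 36, against 5.75%). At an unadjusted p under 0.05 there were 11 members (22.2% of all genes), and 3 lay wholly higher (17.9%) and 12 wholly lower (15.3%). What underlies the difference between the wild types was not tested.

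Fmod had the largest set difference of any member. With the values given above, every array of the L set lay below every array of the S set, with a difference between the wild types of -1.68 (SE 0.28, 3.22-fold, adjusted p = 0.00409) and between the mutants of -1.18 (SE 0.28, 2.26-fold, adjusted p = 0.018). The L-set groups also had the larger SDs, 0.48 and 0.68 against 0.04 and 0.06 in the S set. The adjacent gene Prelp, which encodes a related leucine-rich proteoglycan, was lower in the same comparisons (gene order here and elsewhere is that of RefSeq on GRCm38.p6). Prelp averaged 10.94 in the S-set wild type and 10.19 in the L-set wild type (difference -0.75, adjusted p = 0.0231), and 10.82 in S/S and 10.11 in L/L (difference -0.72, adjusted p = 0.0233).

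Ogn was the largest rise in the L-set wild type, from a mean of 11.21 ± 0.40 to 12.37 ± 0.18 (SD, n = 3; difference 1.16, SE 0.19, 2.23-fold, adjusted p = 0.00386). All arrays of the L set lay above all arrays of the S set, but the difference between the mutants was smaller and did not pass (0.48, SE 0.19, adjusted p = 0.137). Aspn, a further leucine-rich proteoglycan gene separated from Ogn by 1 gene on chromosome 13, passed between the wild types too (difference 0.63, adjusted p = 0.0415) and not between the mutants (0.13, adjusted p = 0.749).

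Mfap5 averaged 10.71 ± 0.02 and 9.73 ± 0.38 in the wild types of the S and L sets (SD, n = 3; difference -0.98, SE 0.16, adjusted p = 0.00437) and 10.16 ± 0.20 and 9.61 ± 0.10 in S/S and L/L (difference -0.56, adjusted p = 0.0481). Only the highest L-set wild-type array, at 10.17, reached into the S/S range. Efemp1 averaged 10.93 ± 0.29 and 11.86 ± 0.33 in the wild types (difference 0.93, SE 0.17, adjusted p = 0.00653) and 11.22 ± 0.09 and 11.85 ± 0.13 in the mutants (difference 0.63, adjusted p = 0.0317). For this gene the sets were completely separate.

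Col11a1, a minor fibrillar collagen best known from cartilage, was the single collagen that passed, at 9.52, 9.76 and 9.78 in the S-set wild type and 10.49, 10.22 and 10.03 in the L-set wild type (difference 0.56, SE 0.14, adjusted p = 0.0288). Between the mutants it had the same direction without overlap (0.38, adjusted p = 0.12). Vcan (0.49, SE 0.14, adjusted p = 0.0483) and Dcn (0.35, SE 0.10, adjusted p = 0.0452) passed narrowly between the wild types and were nearly level between the mutants, at -0.04 and 0.02. When single arrays were left out, Fmod, Ogn, Mfap5 and Efemp1 passed between the wild types in all 12 fits, Col11a1 in 9, Vcan in 4 and Dcn in 3. Leaving out a mutant array cannot change a difference between the wild types and alters only the shared estimate of spread, so those fits do not test dependence on it. Without both male arrays 3 members passed, Fmod, Mfap5 and Ogn. Array 1 or array 2 of the L-set wild type, when left out, reduced the count from 7 to 4, and 11 passed without both arrays numbered 1 of the S set, an alternative added after the data were seen.

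Tnc and Nid1 passed between the mutants and not between the wild types. Tnc read 12.99, 12.94 and 12.87 in S/S and 12.50, 12.18 and 12.38 in L/L (difference -0.58, SE 0.11, adjusted p = 0.00771), and between the wild types the difference was -0.33 (adjusted p = 0.0953). Nid1 differed by -0.50 between the mutants (SE 0.11, adjusted p = 0.0134) and by -0.06 between the wild types (adjusted p = 0.762). For either gene, the change of this difference from wild types to mutants is the difference of the allele effects tested above, which did not pass. Between the mutants Tnc passed in all 12 fits with 1 array left out, Nid1 in 10, Fmod in 8, Efemp1 in 6 and Mfap5 in 4. Here leaving out a wild-type array alters only the shared estimate of spread and not the differences. The count of 5 dropped to 2 without array 1 or 3 of S/S or array 2 of L/L, to 3 without array 2 of S/S or array 3 of L/L, and to 1, Tnc, without array 1 of L/L or without both male arrays. It rose to 8 without array 1 of the S-set wild type and to 9 without both arrays numbered 1 of the S set.

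Across the 36 genes, the set difference in wild types and that in mutants had a Pearson correlation of 0.87, and over all genes of 0.61. The genes share the arrays of each comparison and are not independent, so these values are descriptions. The sign was shared by 27 of 36 members (75.0%) and by 64.7% of all genes.

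**Figure D4:**
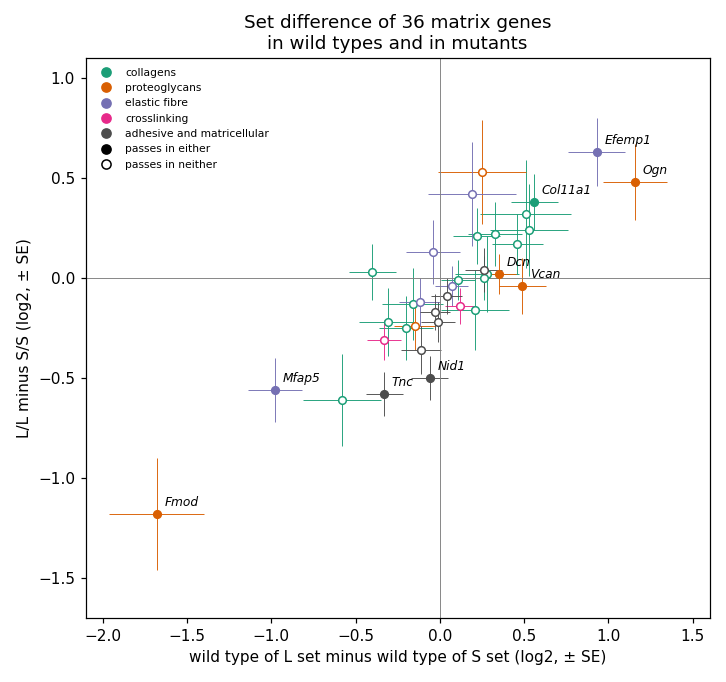
Set difference of each of 36 matrix genes between the wild types (x axis, L set minus S set, log2 units) and between the mutants (y axis, L/L minus S/S, log2 units), with SE bars of the model, coloured by role. Filled points passed in either comparison; Fmod lies at -1.68 and -1.18, Mfap5 at -0.98 and -0.56, Efemp1 at 0.93 and 0.63, and Ogn at 1.16 and 0.48.

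The 250 bases upstream of a listed transcription start are shown for 3 of the 4 genes with the largest set differences, Fmod, Ogn and Efemp1, and for Col6a1 and Col6a2, the adjacent type VI genes whose differences had the same sign in every comparison. They are RefSeq reference sequence of build GRCm38.p6, written 5′ to 3′ on the gene's strand, which is the plus strand for the first 3 and the minus strand for Col6a1 and Col6a2. Capitals mark matches, on either strand, to the letters of 6 motifs. TATAAA stands for the core promoter box bound by TBP, CCAAT for the box of factor NF-Y, GGGCGG for the GC box of the Sp factors, TGANTCA for AP-1, TTTNNCGC for E2F and CAGACA for SMAD proteins. The windows lie at chr1:134037004-134037253 for Fmod, chr13:49607765-49608014 for Ogn, chr11:28852955-28853204 for Efemp1, chr10:76726045-76726294 for Col6a1 and chr10:76623405-76623654 for Col6a2, the first of 2 windows listed for that gene.
Fmod: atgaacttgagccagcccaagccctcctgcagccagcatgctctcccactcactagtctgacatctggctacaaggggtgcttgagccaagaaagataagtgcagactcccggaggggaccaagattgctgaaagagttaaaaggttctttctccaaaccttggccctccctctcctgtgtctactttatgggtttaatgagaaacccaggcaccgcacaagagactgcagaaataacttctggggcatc
Ogn: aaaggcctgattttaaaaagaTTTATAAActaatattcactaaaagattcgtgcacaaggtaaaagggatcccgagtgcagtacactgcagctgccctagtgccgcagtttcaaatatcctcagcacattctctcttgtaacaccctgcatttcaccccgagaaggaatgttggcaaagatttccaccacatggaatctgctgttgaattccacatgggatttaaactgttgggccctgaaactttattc
Efemp1: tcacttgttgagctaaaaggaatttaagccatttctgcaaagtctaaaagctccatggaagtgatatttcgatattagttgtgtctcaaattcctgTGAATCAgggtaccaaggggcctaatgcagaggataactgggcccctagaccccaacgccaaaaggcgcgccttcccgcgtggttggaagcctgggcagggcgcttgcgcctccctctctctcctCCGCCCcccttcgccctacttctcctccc
Col6a1: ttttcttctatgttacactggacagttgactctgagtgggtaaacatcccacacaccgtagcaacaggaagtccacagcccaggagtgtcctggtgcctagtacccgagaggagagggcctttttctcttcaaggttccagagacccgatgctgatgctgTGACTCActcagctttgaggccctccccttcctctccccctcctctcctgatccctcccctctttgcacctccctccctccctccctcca
Col6a2: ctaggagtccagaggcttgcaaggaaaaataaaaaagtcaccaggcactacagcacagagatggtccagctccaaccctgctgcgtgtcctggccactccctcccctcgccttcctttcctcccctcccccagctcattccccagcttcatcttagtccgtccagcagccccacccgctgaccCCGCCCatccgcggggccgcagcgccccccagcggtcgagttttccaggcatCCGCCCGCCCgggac

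The Fmod window held none of these letters. In Ogn the capitals are a pair of overlapping TBP box matches on opposite strands, 229 and 227 bases before the start. Efemp1 held an AP-1 match 154 bases and a GC box match 29 bases before the start, Col6a1 an AP-1 match at 90 bases, and Col6a2 GC box matches at 67, 15 and 11 bases, the last pair overlapping. The starts used for Efemp1 and Col6a2 lie inside the annotated gene, and so do the GC box matches of both. Windows were found for 24 of the 36 members. AP-1 letters occurred in 2 of the 24, Col6a1 and Efemp1, in 7.82% of 27025 genes with a window and in 6.75% of all 32851 windows, which have the same length. E2F letters occurred in 0 of 24, 4.94% of genes and 4.28% of windows. GC box letters occurred in 14 of 24, 35.4% of genes and 32.7% of windows, and the NF-Y letters in 8, 37.5% and 33.8%. The TBP box occurred in 5 of 24, 14.3% of genes and 12.4% of windows, and the SMAD letters in 9, 19.3% and 17.1%. A match describes these letters and is no evidence of binding.

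Among the other adjacent pairs, Col3a1 and Col5a2 differed by 0.33 and 0.51 between the wild types and by 0.22 and 0.32 between the mutants, with none passing. Col4a1 and Col4a2, which share a promoter region head to head, differed by 0.28 and 0.21 between the wild types and by 0.02 and -0.16 between the mutants. Adjacency did not always go with like values, as for Dcn and Lum in S/S (0.12 and -0.75).

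Genes that act on the matrix were read from 4 further lists: collagen processing and secretion (28 of 30 measured), other matrix proteins (44 of 45), the TGF-beta pathway (23 of 24) and cell-surface matrix receptors (27 of 27). None of these passed in the limma fit in S/S, in L/L or in the difference between the effects. At an unadjusted p under 0.05 there were 3, 4, 5 and 6 genes in S/S and 2, 2, 0 and 3 in L/L, in that order, and 4, 1, 0 and 4 in the difference, where 10.1%, 3.27% and 6.50% of all genes lay. A single receptor passed in S/S when each set was fitted alone, with a replicate block, or without both male arrays, and a single TGF-beta gene without array 1 of the L-set wild type. The medians in S/S were 0.00, -0.09, 0.01 and 0.16 in that order, and in L/L -0.07, -0.04, 0.02 and -0.04. The receptors had the most uneven balance in S/S, with 22 of 27 higher, 18 of 27 without array 1 of the S-set wild type and 20 of 27 after quantile normalization. In the main fit 42.4% of all genes were higher in S/S, and 58.3% of genes at least as bright as the dimmest matrix member.

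The values of smallest p in S/S were, among the processing genes, Plod2, a lysyl hydroxylase of collagen (0.71, SE 0.23, adjusted p = 0.333), and Adamts3, a procollagen N-proteinase (-0.45, SE 0.13, adjusted p = 0.257). Among the other matrix genes Emilin2, of the elastin microfibril interface, had the smallest p (-0.54, SE 0.16, adjusted p = 0.304). In the TGF-beta pathway these were the target Tgfbi (-0.68, SE 0.20, adjusted p = 0.278), the co-receptor Eng (0.40, SE 0.12, adjusted p = 0.308) and the ligand Tgfb2 (0.49, SE 0.15, adjusted p = 0.33). Among receptors they were the hyaluronan receptor Cd44 (0.30, adjusted p = 0.325), the scavenger receptor Cd36, which macrophages also make (1.65, adjusted p = 0.34), and the integrin subunit Itgb1 (0.35, adjusted p = 0.39). In L/L the smallest p of the 4 lists belonged to the fibulin gene Fbln7 (0.54, SE 0.15, adjusted p = 0.506). The procollagen C-proteinase Bmp1 (-0.29) and the prolyl 3-hydroxylase P3h1 (-0.25) led the processing genes in L/L, with adjusted p-values of 1.0.

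Between the wild types members of the lists passed in both directions, as did 3.54% of all genes as higher and 5.17% as lower. Of the processing genes 2 rose in the L set, Plod2 (0.78) and the collagen-folding prolyl isomerase Ppib (0.43), and 4 fell, Sec24d of the coat that exports procollagen (-0.49), the procollagen enhancer Pcolce2 (-0.70), Adamts14 (-0.49) and the collagen-inducing transcription factor Creb3l1 (-0.64). Of the other matrix genes 2 rose (Fbln7 and Aspn, 0.58 and 0.63) and 5 fell, from -0.40 for the latent TGF-beta binding protein Ltbp3 to -0.75 for Spon1 and Prelp. Of the TGF-beta pathway genes 5 fell, the ligands Tgfb1 (-0.69) and Tgfb3 (-0.42), the receptor Tgfbr2 (-0.46), the repressor Ski (-0.39) and the target Tgfbi (-0.86), and the repressor Skil rose (0.73). Plod2 and Skil passed in the limma fit at adjusted p-values of 0.0489 and 0.0288. Both were lowest in array 1 of the S-set wild type, which stood apart, at 9.83 against 10.51 and 10.84 for Plod2 and 7.74 against 8.49 and 8.51 for Skil. The S/S value of Plod2 rests on the same wild-type arrays. Of the receptors the fibronectin receptor subunit Itga5 (-0.61) and the syndecan Sdc3 (-0.44) fell. Without both male arrays 1 other matrix gene passed as lower and 1 receptor as higher, and no processing or TGF-beta gene passed.

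Between L/L and S/S the receptors were mostly lower, with 25 of 27 lower (median -0.22), against 46.2% of all genes lower (median 0.02). In the same comparison 11 of 12 macrophage and blood markers (median -0.87) and 5 of 6 smooth muscle and pericyte markers (median -0.26) were lower, and their part in the receptor values was not tested. As background for the counts that follow, 3.69% of all genes passed as higher and 5.75% as lower. Of the receptors 8 passed, Itga5 (-0.91), Sdc2 (-0.69), Itga6 (-0.60), Itga11 (-0.59), Sdc3 (-0.59), Cd44 (-0.55), Cd47 (-0.49) and the collagen receptor Ddr1 (-0.45). The TGF-beta genes Tgfb2, Tgfb3, Tgfbr2, Ski and Ccn2 fell too, by values between -0.43 and -0.63. Of the processing genes Ppib was higher (0.50) and 4 lower, and of the other matrix genes 3 were higher, led by Fbln7 (1.14), and 5 lower, Spon1, Prelp, Smoc1, Hspg2 and Ltbp2. Without both male arrays 3 receptors and 1 processing gene passed as lower, and 1 TGF-beta gene and 1 other matrix gene as higher.

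Markers of other cell types were read beside these results. The 12 macrophage and blood markers were all higher in S/S (median 0.75) and all lower in L/L (median -0.35), and none passed in either. All 12 lay wholly above the wild type in S/S, where 5.49% of all genes did. In L/L 0 lay wholly above (9.71% of all genes) and 0 wholly below (5.10%). The SE (median 0.53) is shared over the 4 groups, and these markers varied more in the L set. Their mean level per array was 8.24 to 8.48 in the S-set wild type and 9.09 to 9.22 in S/S, and 7.74 to 9.91 in the L-set wild type and 7.34 to 9.08 in L/L. The L/L direction of these markers turned without array 3 of the L-set wild type (11 of 12 higher) or array 1 of L/L (10 of 12 higher), and in those fits 30 and 32 of 36 matrix genes were lower. The macrophage marker Adgre1 read 6.91, 7.43 and 7.53 in the S-set wild type and 7.99, 8.02 and 8.18 in S/S, and the pan-leukocyte marker Ptprc read 6.21, 6.22 and 6.03 against 6.69, 6.54 and 6.26. The part of these cells in the S/S and L/L values of the matrix genes was not tested. Markers of smooth muscle and pericytes had mean levels of 9.46 to 10.15, with 5 of 6 higher in S/S and 6 of 6 in L/L, and none passed in either mutant (lowest adjusted p = 0.0584, for Rgs5 in S/S). Cartilage markers had mean levels of 6.89 to 7.46.

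Some of these markers passed between the sets, beside the matrix and receptor differences given above. Between the wild types the fibroblast marker Thy1 (-0.49, adjusted p = 0.0201), the cartilage genes Acan, Sox9 and Matn1 (-0.70, -0.74 and -0.37) and the smooth muscle gene Cnn1 (-0.75, adjusted p = 0.00763) were lower in the L set, and the endothelial receptor Tek was higher (0.58, adjusted p = 0.0134). All 7 cartilage and all 6 smooth muscle and pericyte markers were lower there (medians -0.37 and -0.28). Between L/L and S/S Thy1 (-0.41), Pdgfrb (-0.51), Acan (-0.67), Sox9 (-0.76), Rgs5 (-0.75), Myh11 (-0.58), the muscle gene Des (-0.84) and the macrophage integrin subunit Itgam (-1.02) were lower, and Cd34 (0.84) and Tek (0.51) higher, each at an adjusted p under 0.05. The part of these markers in the set differences of the matrix genes was not tested. Endothelial, epithelial and skeletal muscle markers had mean levels of 6.23 to 7.16, and no member of these lists passed in either mutant.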

How the data were processed

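Gene expression was measured in serum-starved mouse embryonic fibroblasts with Affymetrix Mouse Gene 1.0 ST arrays. The authors deposited log2 RMA values (background-corrected, normalized and summarised per probe set), made with Partek per the series design text and the submitters' processing notes; its version and the genome build are not given in the sources used here. Values from 2.43 to 14.67 show the log2 scale.

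Of 35556 probe sets, 21789 carried 1 gene symbol, 1621 several and 12146 none. A gene was read by its single-symbol probe set with the highest mean over the 12 arrays (19938 genes, 999 with more than 1 such probe set); Fbn1 and Loxl2 are not analysed here. No filter on dim values was used. The 12 arrays were fitted together, with 1 mean for each of 4 groups, in limma 3.58.1 in R 4.3.3 (8 residual and 5.19 prior degrees of freedom). Tests were two-sided, with Benjamini-Hochberg adjustment over 19938 genes. The fit was also run on simulated data in which a gene had the same spread in every array. That run cannot show how the fit behaves with an array that stood apart, as here. The threshold for a pass was an adjusted p of 0.05. Errors are SDs over 3 arrays or SEs of the model, and precision is limited by these few arrays.

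The members and all gene lists were chosen with earlier results of these data known. Genes given in full were those that passed in a comparison, those with non-overlapping groups and an unadjusted p under 0.05 in a mutant, and the extremes of each role, and of the other lists those that passed or had the smallest p; every member was accounted for by role, and values by array of further members were added after they were seen. The L/L minus S/S comparison was added after the data were seen. Same-numbered wild-type and mutant arrays correlated in their deviations from the group means at 0.388, 0.475 and -0.122 in the S set and 0.601, 0.058 and 0.359 in the L set. Arrays of different number correlated at -0.599 to 0.587 in the S set and -0.517 to 0.214 in the L set. These values do not settle whether the arrays were paired. The labels state no pairing, and the main fit did not take the numbers as pairs. Alternatives were quantile normalization, other moderation, each set alone, a replicate block, the mean of a gene's probe sets, a mean of at least 6, and leaving out arrays. Promoters are RefSeq sequence of GRCm38.p6, matched to the members by gene identifier.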

Additional observations from a re-analysis of the deposited data

How the results depend on the processing

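No matrix gene passed in S/S, in L/L or in the difference between the effects under any alternative tried, including each fit without 1 of the 12 arrays. Few genes of any kind passed there, so this says little about stability. With a replicate block 0 members passed in each of these comparisons, with 10, 8 and 6 at an unadjusted p under 0.05. The main limma fit had 7, 1 and 5 there. With each set fitted alone 0 passed in S/S and in L/L, with 2 and 6 at an unadjusted p under 0.05. The lowest adjusted p of a member was then 0.305 in S/S and 0.274 in L/L. The share of all genes under the unadjusted threshold was not counted for these alternatives. Between the wild types 7 members passed; 3 did so without both male arrays, 11 without both arrays numbered 1 of the S set, and 4 to 7 without single arrays. Between L/L and S/S 5 passed; 1 did so without both male arrays, 9 without both arrays numbered 1 of the S set, and 1 to 8 without single arrays. The cause was not tested, though fits with fewer arrays have fewer degrees of freedom. Some small differences changed sign. Without single arrays, the S/S difference ran from -0.01 to 0.42 for Col4a2 and from -0.01 to 0.09 for Sparc. In L/L it ran from -0.02 to 0.19 for Col15a1, -0.10 to 0.53 for Fmod, -0.11 to 0.32 for Eln, -0.27 to 0.09 for Mfap5 and -0.07 to 0.02 for Lox. Without both male arrays the L/L difference was -0.00 for Col15a1, 0.07 for Mfap5 and 0.00 for Lox, and after quantile normalization 0.02 for Lox. The number of arrays, 3 per group, limits every comparison.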
